A study of Mus musculus with 19 samples.

Results

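Perilipins and other proteins that coat the lipid droplet were followed at the RNA level in mouse liver through 8 genes of 24421 in the deposited count table: Plin5, Plin2, Plin3, Plin4, Cideb, Cidec, Hsd17b11 and Hsd17b13. They were chosen by name, as the perilipins and other lipid droplet coat genes that liver is known to express, and all 8 passed the filter on low counts among 13293 genes tested. The 19 liver libraries fell into 4 groups: re-fed with PLIN5 ASO (n = 5), re-fed with control ASO (n = 5), fasted with PLIN5 ASO (n = 5) and fasted with control ASO (n = 4, numbered 1, 3, 4 and 5). An antisense oligonucleotide (ASO) is a synthetic strand that binds a chosen transcript and brings its amount down. All mice ate a purified normal diet and were injected with the ASO directed at Plin5 or with a control ASO 2 times a week for 3 weeks. All were fasted overnight, and the re-fed groups then ate for 4 h before the liver was taken. The labels give no age, sex or strain, no sequence of either oligonucleotide and no other ASO against Plin5, so effects of lower Plin5 and other effects of that oligonucleotide cannot be told apart. They also do not say that replicates are separate animals, so p-values measure only the spread between these libraries.

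A lipid droplet is a core of neutral lipid under a single layer of phospholipid, and coat proteins on that layer set how readily lipases reach the lipid. Perilipin 2 is the main perilipin of hepatocyte droplets, perilipin 3 moves from cytosol to young droplets, perilipin 4 is best known from adipocytes, and perilipin 5 ties droplets to mitochondria in tissues that burn fat. CIDEC lets lipid pass between droplets so that large ones grow, CIDEB serves both droplets and the loading of very-low-density lipoproteins in hepatocytes, and HSD17B11 and HSD17B13 are related dehydrogenases that sit on droplets. PPAR alpha, the fatty acid sensor of the fasted liver, is known to drive several of these genes, Plin2 and Plin5 among them.

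Sequencing depth ranged from 24.9 to 66.9 counts per library, taken in 1e+06. Before the results, 2 features of the libraries bear on them. Arntl, the core clock activator, was highest in fasted PLIN5 ASO 3 and 5 (14.6 and 15.0 CPM, counts scaled to 1e+06 per library) and in re-fed control ASO 3 and 5 (23.8 and 45.0 CPM). The other libraries ranged from 0.566 to 4.87 CPM. These 4 libraries are called clock-shifted below, and values without them are given where a call changes. Fasted control ASO 3 and 4 lay closest together of all pairs within a group (chi-square per degree of freedom 3.21, next pair 18.4), which is above sampling noise, so both were kept. Sampling noise here covers counting only, so this cannot show whether they come from separate animals. Counts with both as 1 sample are given at the end. The tissue label was borne out by 10 hepatocyte marker genes, whose summed level was 91512 to 159890 CPM over the 19 libraries. By group it was 112818 to 159890 CPM in re-fed PLIN5 ASO and 91512 to 118985 CPM in re-fed control ASO livers. In fasted livers it was 100311 to 134432 CPM with PLIN5 ASO and 101515 to 121135 CPM with control ASO. The 8 adipocyte markers summed to 20.4 to 43.7 CPM, most of it Lpl and Adrb3, while Adipoq, Lep and Retn stayed at or below 0.519 CPM, and the 8 muscle markers summed to at most 0.304 CPM.

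All 8 genes lie on the minus strand in build GRCm38 (GENCODE annotation). Plin4 (chr17:56100591-56109803) and Plin5 (chr17:56111601-56117596) are direct neighbours, and Plin3 (chr17:56277476-56292873) lies on the same chromosome. Hsd17b13 (chr5:103955440-103977410) and Hsd17b11 (chr5:103989762-104021919) are also direct neighbours. Plin2 lies at chr4:86648386-86670060, Cideb at chr14:55754050-55758458 and Cidec at chr6:113424634-113435760. The upstream sequences of Plin5, the target of the ASO, and of Plin2, Hsd17b11 and Hsd17b13, the members that fell with feeding over both ASOs, follow 5′ to 3′ on the strand of the gene, from RefSeq on GRCm38.p6 and cut so that they hold no annotated exon. Capitals mark AGGTCA or its reverse complement TGACCT, the half-site that nuclear receptors such as PPAR alpha can bind.
Plin5: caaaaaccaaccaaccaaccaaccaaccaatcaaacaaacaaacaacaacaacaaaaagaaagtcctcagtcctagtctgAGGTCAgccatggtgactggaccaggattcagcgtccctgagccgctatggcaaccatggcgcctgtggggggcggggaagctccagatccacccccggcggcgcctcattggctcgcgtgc
Plin2: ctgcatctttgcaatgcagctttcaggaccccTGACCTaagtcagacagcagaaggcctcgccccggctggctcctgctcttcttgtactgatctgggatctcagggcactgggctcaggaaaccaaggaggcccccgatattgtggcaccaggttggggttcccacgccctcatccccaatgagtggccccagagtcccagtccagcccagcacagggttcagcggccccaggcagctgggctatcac
Hsd17b11: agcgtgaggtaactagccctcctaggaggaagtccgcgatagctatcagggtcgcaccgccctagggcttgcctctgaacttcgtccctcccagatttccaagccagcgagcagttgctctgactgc
Hsd17b13: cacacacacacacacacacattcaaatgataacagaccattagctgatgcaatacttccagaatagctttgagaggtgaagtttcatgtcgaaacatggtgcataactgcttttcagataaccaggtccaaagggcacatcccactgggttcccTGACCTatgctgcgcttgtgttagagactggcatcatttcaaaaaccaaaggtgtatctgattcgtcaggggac
These windows lie at chr17:56117597-56117798, chr4:86670061-86670309, chr5:104021920-104022046 and chr5:103977411-103977638 in that order.

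Within 250 bases upstream of the RefSeq start, searched on both strands, AGGTCA was found in 3 of 8 members (Plin5, Plin2 and Hsd17b13) and in 14% of 32841 windows of the same length. It starts 170 bases before the start in Plin5, 218 in Plin2 and 96 in Hsd17b13. The full direct repeat, AGGTCA on either side of 1 free base, was in 0 of 8 members and 0.0335% of windows, and CACGTG, the E-box that clock factors and ChREBP-type factors can bind, in 0 of 8 members and 6.02% of windows. Hsd17b11, the member with the smallest p for feeding, held none of these letters in its window. Such a match is a run of letters only.

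Levels between genes are compared per transcript length, in the deposited FPKM (fragments per kilobase of transcript and per 1e+06 fragments mapped). Hsd17b13 stood highest, with a mean of 477 FPKM over the 19 libraries (range 318 to 578), followed by Cideb at 413 FPKM (365 to 512), Plin2 at 220 FPKM (115 to 403) and Hsd17b11 at 191 FPKM (89.4 to 292). A drop of more than an order of magnitude separated these from Plin3 at 15.0 FPKM (10.9 to 19.2) and Plin5 at 10.8 FPKM (1.85 to 27.0). Cidec at 2.33 FPKM (0.284 to 8.31) and Plin4 at 1.89 FPKM (0.325 to 4.75) were lowest. Cideb stood above Plin2 in 19 of 19 libraries and Hsd17b11 above Plin3 in 19 of 19. The other neighbours in the order overlapped: Hsd17b13 exceeded Cideb in 15 of 19 libraries, Plin2 exceeded Hsd17b11 in 14, Plin3 exceeded Plin5 in 12, Plin5 exceeded Cidec in 16 and Cidec exceeded Plin4 in 11. The place of Plin5, the target of the ASO, differed with the ASO group. The medians of Plin5 and Plin3 were 3.55 and 16.9 FPKM in re-fed PLIN5 ASO livers, against 17.3 and 14.4 FPKM in re-fed control ASO livers. In fasted livers they were 3.56 and 13.7 FPKM with PLIN5 ASO, against 18.0 and 15.4 FPKM with control ASO.

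The place of Cideb in this order rests on the unit. Counts per kilobase of the longest transcript put it at 59.1 CPM per kilobase, below Hsd17b11 at 143 in 19 of 19 libraries. Its FPKM was 6.92 times its CPM per kilobase (range 6.16 to 7.98), against medians of 0.717 to 1.64 in the other members and 1.01 over 10053 genes, and 0.418% of those genes had a ratio as high. Of the annotated exonic bases of Cideb, 1136 (76.3%) also belong to Nop9 on the other strand, a gene of ribosome assembly with a ratio of 0.854. None of the sources used here gives the strand setting of the counting, so counts of Cideb and Nop9 are uncertain where they overlap. The only other such overlap among the members is 17 bases (0.294%) of Plin4 with Hdgfl2.

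**Figure D1:**
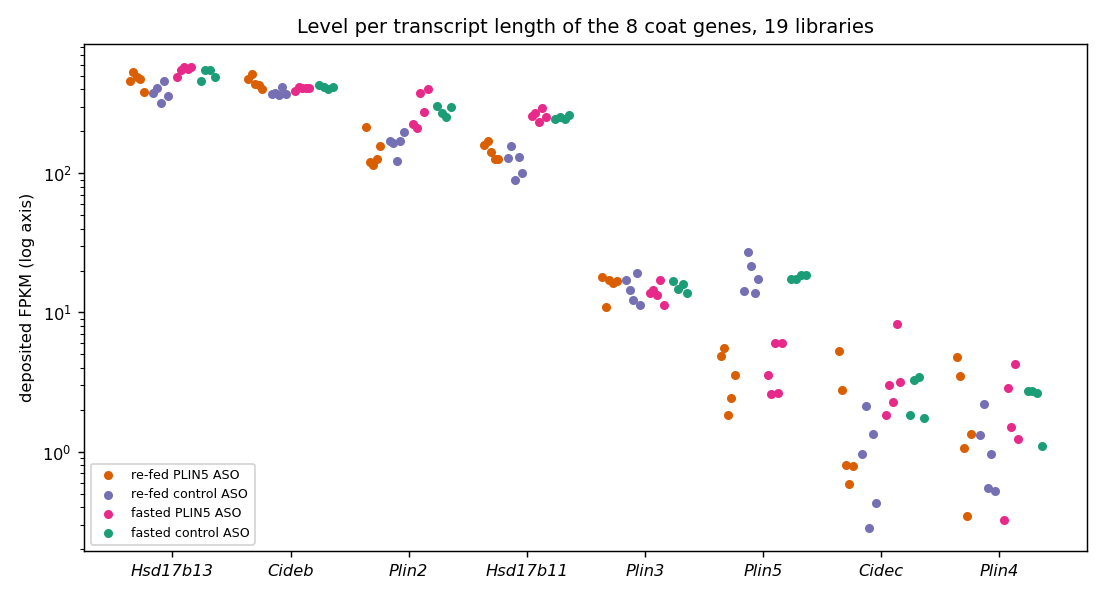
Deposited FPKM of the 8 coat genes on a log axis, each point 1 library, coloured by group. Hsd17b13, Cideb, Plin2 and Hsd17b11 lie between 89.4 and 578 FPKM, and the other genes at or below 27.0 FPKM; the low Plin5 points are the PLIN5 ASO libraries.

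Among the perilipins, Plin2 made up most of the RNA in every group. Its share of the summed FPKM of Plin2, Plin3, Plin4 and Plin5 was 86.8% ± 1.40 in re-fed PLIN5 ASO livers and 82.2% ± 3.71 in re-fed control ASO livers (SD, n = 5 each). It was 93.3% ± 1.80 in fasted PLIN5 ASO livers (n = 5) and 88.7% ± 1.16 in fasted control ASO livers (n = 4). Plin5 held 2.20% ± 1.01 and 9.68% ± 3.44 in the re-fed groups with PLIN5 ASO and control ASO, and 1.28% ± 0.271 and 5.71% ± 0.517 in the fasted ones. The 4 genes together summed to 168 ± 44.3 FPKM and 199 ± 25.9 FPKM in re-fed livers with PLIN5 ASO and control ASO, and to 319 ± 87.8 FPKM and 316 ± 22.6 FPKM in fasted livers. Other family members were at the floor of the data. Plin1, the perilipin of adipocytes, had 0 counts in 17 libraries and 2 and 4 counts in re-fed control ASO 5 and fasted PLIN5 ASO 3, and Cidea stayed at or below 0.133 CPM, so neither was tested.

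The PLIN5 ASO comparison asks what changes in the droplet coat when the perilipin 5 transcript is lowered. Plin5 was the 1 member of 8 that changed, in fasted and in re-fed liver alike. Its FPKM in the single fasted libraries was 3.56, 2.59, 6.02, 2.64 and 6.08 with PLIN5 ASO, against 17.4, 17.5, 18.5 and 18.6 with control ASO. In re-fed libraries it was 4.84, 5.56, 1.85, 2.44 and 3.55 with PLIN5 ASO, against 14.2, 27.0, 21.7, 13.9 and 17.3 with control ASO. Every PLIN5 ASO library lay below every control ASO library of its feeding state. The log2 fold change in counts over both feeding states was -2.15 (SE 0.20, 95% confidence interval -2.56 to -1.74, edgeR adjusted p = 7.30e-06). In bulk liver, fewer cells of a type and less RNA per cell cannot be told apart.

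Of all genes tested, 1.17% were called in the fasted comparison (0.572% lower), 1.38% in the re-fed one (0.564% lower) and 2.99% over both states (1.54% lower). The median log2 fold change of the 8 members was 0.22 in re-fed liver and 0.11 over both states, against -0.01 and 0.00 for all genes, and it lay at 0 to 2 decimals in fasted liver. Of the members, Plin5 alone had no overlap between the groups, and all genes lay wholly lower in 4.26% of cases in fasted and 1.74% in re-fed liver.

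For the other perilipins the size of change that the data allow differed by gene. Over both feeding states the log2 fold change of Plin2 was -0.04 (95% confidence interval -0.31 to 0.24) and that of Plin3 was -0.01 (-0.22 to 0.21), each with an adjusted p above 0.9 in edgeR. Plin4, at 0.41, had an interval of -0.50 to 1.33, wide enough to hold a change larger than a doubling. The CPM of Plin2 in fasted libraries were 438, 410, 675, 514 and 754 with PLIN5 ASO, against 565, 516, 485 and 572 with control ASO. Its 2 highest values, 675 and 754 CPM, were in the clock-shifted libraries 3 and 5, which also held the highest Plin5 of that group and the 2 lowest values of Plin3 (28.4 and 25.2 CPM). Without the 4 clock-shifted libraries the fasted log2 fold change of Plin2 was -0.23 (adjusted p = 0.601 in edgeR).

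Among the other droplet proteins, 4 members leaned upward in re-fed liver without passing the threshold. The CPM of Hsd17b13 were 569, 651, 584, 573 and 461 with PLIN5 ASO, against 442, 480, 390, 558 and 424 with control ASO. This was a log2 fold change of 0.31 (SE 0.10, edgeR adjusted p = 0.108). The groups overlapped through library 5 of the one and library 4 of the other, and without re-fed control ASO 4 the call changed (edgeR adjusted p = 0.0399). The CPM of Hsd17b11 were 269, 286, 233, 211 and 213 with PLIN5 ASO, against 207, 253, 151, 215 and 164 with control ASO (0.29, SE 0.12, edgeR adjusted p = 0.204). In both genes the lowest control value, 390 and 151 CPM, was in clock-shifted library 3, and without the 4 clock-shifted libraries the differences were 0.20 and 0.11. The summed hepatocyte markers also ran higher in re-fed PLIN5 ASO livers (112818 to 159890 CPM) than in re-fed control ASO livers (91512 to 118985 CPM). Their part in these differences was not tested.

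Cidec differed by 0.83 (SE 0.42, edgeR adjusted p = 0.286) in re-fed liver and by 0.53 (SE 0.42, edgeR adjusted p = 0.607) in fasted liver. Cideb spanned a narrow range in re-fed liver, with 80.7, 77.7, 77.0, 77.9 and 70.0 CPM in re-fed PLIN5 ASO livers, against 66.3, 66.8, 71.9, 70.8 and 70.1 CPM in re-fed control ASO livers. Its difference of 0.15 (SE 0.06) had an edgeR adjusted p of 0.178, while limma on log2(FPKM + 1) called it (adjusted p = 0.0334 at the lowest). In this comparison log2 fold changes ran with transcript length over all genes (Spearman's rho = -0.32), and with that trend taken out Cideb differed by 0.00 (edgeR adjusted p = 0.989). No member's ASO effect differed detectably between the feeding states: 0 of 8 passed the interaction test in edgeR at an adjusted p of 0.05, where 0.0226% of all genes did, and 1 of 8, Cideb at 0.20 (unadjusted p = 0.0315), had an unadjusted p under 0.05. DESeq2 also called 0 of 8 members.

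**Figure D2:**
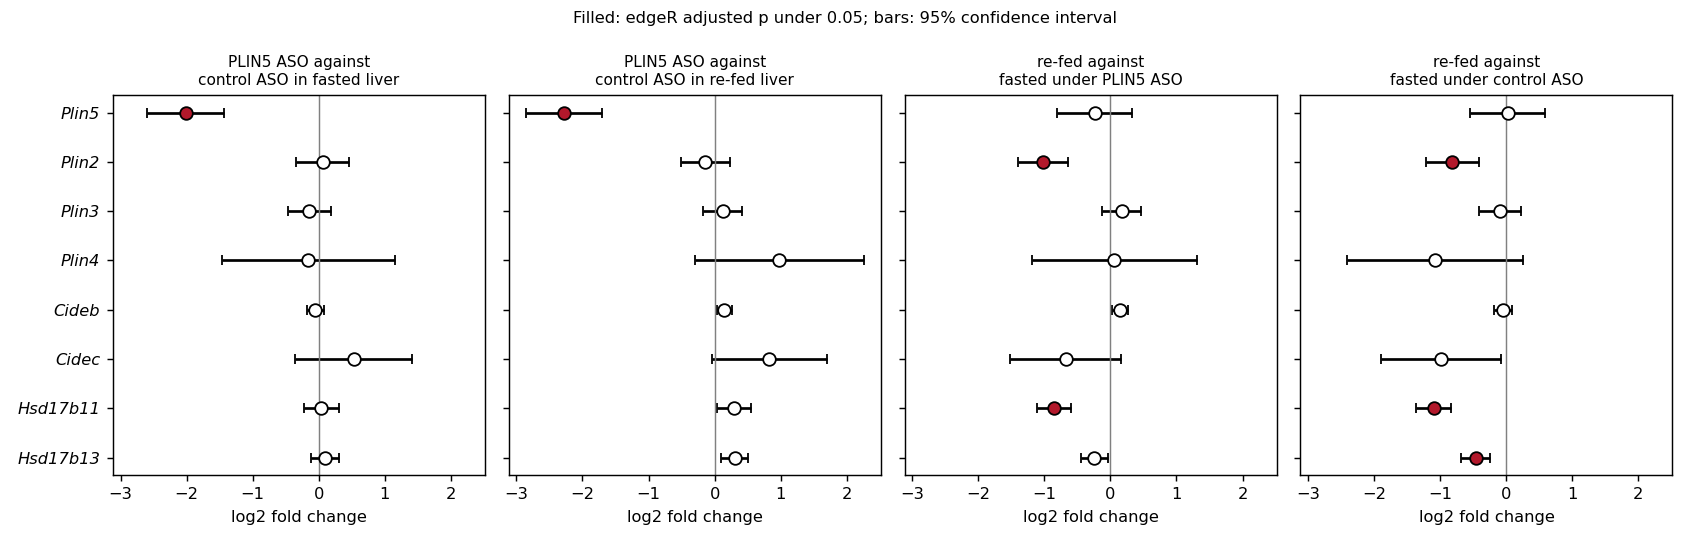
log2 fold change of each member (points) with its 95% confidence interval (bars) in the 4 comparisons; filled points passed an edgeR adjusted p of 0.05. Plin5 is filled in both PLIN5 ASO panels, Plin2 and Hsd17b11 in both re-feeding panels and Hsd17b13 in the re-feeding panel of control ASO.

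The re-feeding comparison asks how the droplet coat responds when a fast ends. Plin2 and Hsd17b11 fell after 4 h of re-feeding under either ASO, and Hsd17b13 fell under control ASO. No member rose. Under control ASO 3 of 8 members fell, where 13.2% of all genes were called and 6.82% fell. Under PLIN5 ASO 2 of 8 fell, where 8.64% were called and 4.14% fell. These backgrounds moved with single libraries: the count called under control ASO, 1759, was 1112 and 1161 without fasted control ASO 3 and without 4. The count under PLIN5 ASO, 1148, was 748 without re-fed PLIN5 ASO 3 and 741 without fasted PLIN5 ASO 5. Over both ASOs 3 of 8 fell, where 20.1% were called and 9.65% fell. The median log2 fold change of the members was -0.64 under control ASO, -0.25 under PLIN5 ASO and -0.43 over both, against 0.03, 0.00 and 0.01 for all genes.

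Plin2, the main hepatocyte perilipin, stood under PLIN5 ASO at 408, 229, 213, 238 and 289 CPM in re-fed livers, against 438, 410, 675, 514 and 754 CPM in fasted livers. Its values under control ASO were 309, 300, 231, 313 and 361 CPM in re-fed livers, against 565, 516, 485 and 572 CPM in fasted livers. Every re-fed library lay below every fasted one of the same ASO, although re-fed PLIN5 ASO 1, at 408 CPM, came within 2 CPM of the lowest fasted library. In FPKM the PLIN5 ASO groups overlapped, with 214 in re-fed PLIN5 ASO 1 and 211 in fasted PLIN5 ASO 2. The log2 fold change was -1.02 under PLIN5 ASO (SE 0.18, edgeR adjusted p = 0.00150) and -0.82 under control ASO (SE 0.19, edgeR adjusted p = 0.00771).

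Hsd17b11 under PLIN5 ASO stood at 269, 286, 233, 211 and 213 CPM in re-fed livers, against 443, 465, 371, 487 and 423 CPM in fasted livers. Its values under control ASO were 207, 253, 151, 215 and 164 CPM in re-fed livers, against 413, 432, 416 and 441 CPM in fasted livers. The groups did not overlap under either ASO, a separation toward lower values that 3.63% of all genes showed under PLIN5 ASO and 9.12% under control ASO. The log2 fold change was -0.85 (SE 0.12, edgeR adjusted p = 2.66e-04) under PLIN5 ASO and -1.10 (SE 0.13, edgeR adjusted p = 3.81e-05) under control ASO. Over both ASOs it was -0.98 (95% confidence interval -1.16 to -0.79).

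Its neighbour Hsd17b13 moved less. Its values under PLIN5 ASO were 569, 651, 584, 573 and 461 CPM in re-fed livers, against 623, 697, 668, 684 and 695 CPM in fasted livers (-0.25, SE 0.10, edgeR adjusted p = 0.130). Its values under control ASO were 442, 480, 390, 558 and 424 CPM in re-fed livers, against 557, 680, 680 and 606 CPM in fasted livers (-0.46, SE 0.10, edgeR adjusted p = 0.00664). Fasted and re-fed libraries overlapped under both ASOs, and without the 4 clock-shifted libraries the change under control ASO was -0.36 (edgeR adjusted p = 0.0656). The ratio of Hsd17b13 to Hsd17b11 CPM, looked at after the values were seen and so given without a test, was 2.12 to 2.72 in re-fed and 1.40 to 1.80 in fasted livers under PLIN5 ASO. Under control ASO the same ratio was 1.90 to 2.59 in re-fed and 1.35 to 1.63 in fasted livers.

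Cidec, which promotes large droplets, leaned the same way. Its values under PLIN5 ASO were 10.5, 6.08, 3.15, 2.22 and 3.25 CPM in re-fed livers, against 4.79, 6.74, 5.42, 15.6 and 7.57 CPM in fasted livers. Its values under control ASO were 2.83, 4.76, 1.47, 3.29 and 1.68 CPM in re-fed livers, against 4.00, 6.69, 6.84 and 4.71 CPM in fasted livers. The groups overlapped under each ASO. Over both ASOs the log2 fold change was -0.83 (SE 0.30, 95% confidence interval -1.45 to -0.22), just short of the threshold (edgeR adjusted p = 0.0521), and 10 of 30 alternative settings called it.

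The remaining members did not pass the threshold for feeding. Plin5 changed by -0.24 (edgeR adjusted p = 0.634) under PLIN5 ASO and 0.02 (edgeR adjusted p = 0.968) under control ASO, with 95% confidence intervals of -0.81 to 0.33 and -0.55 to 0.59. Plin3 changed by 0.17 and -0.09, with intervals of -0.12 to 0.47 and -0.41 to 0.22. Cideb changed by 0.15 and -0.05. Plin4, at 0.06 and -1.08, had intervals of -1.18 to 1.31 and -2.41 to 0.26.

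**Figure D3:**
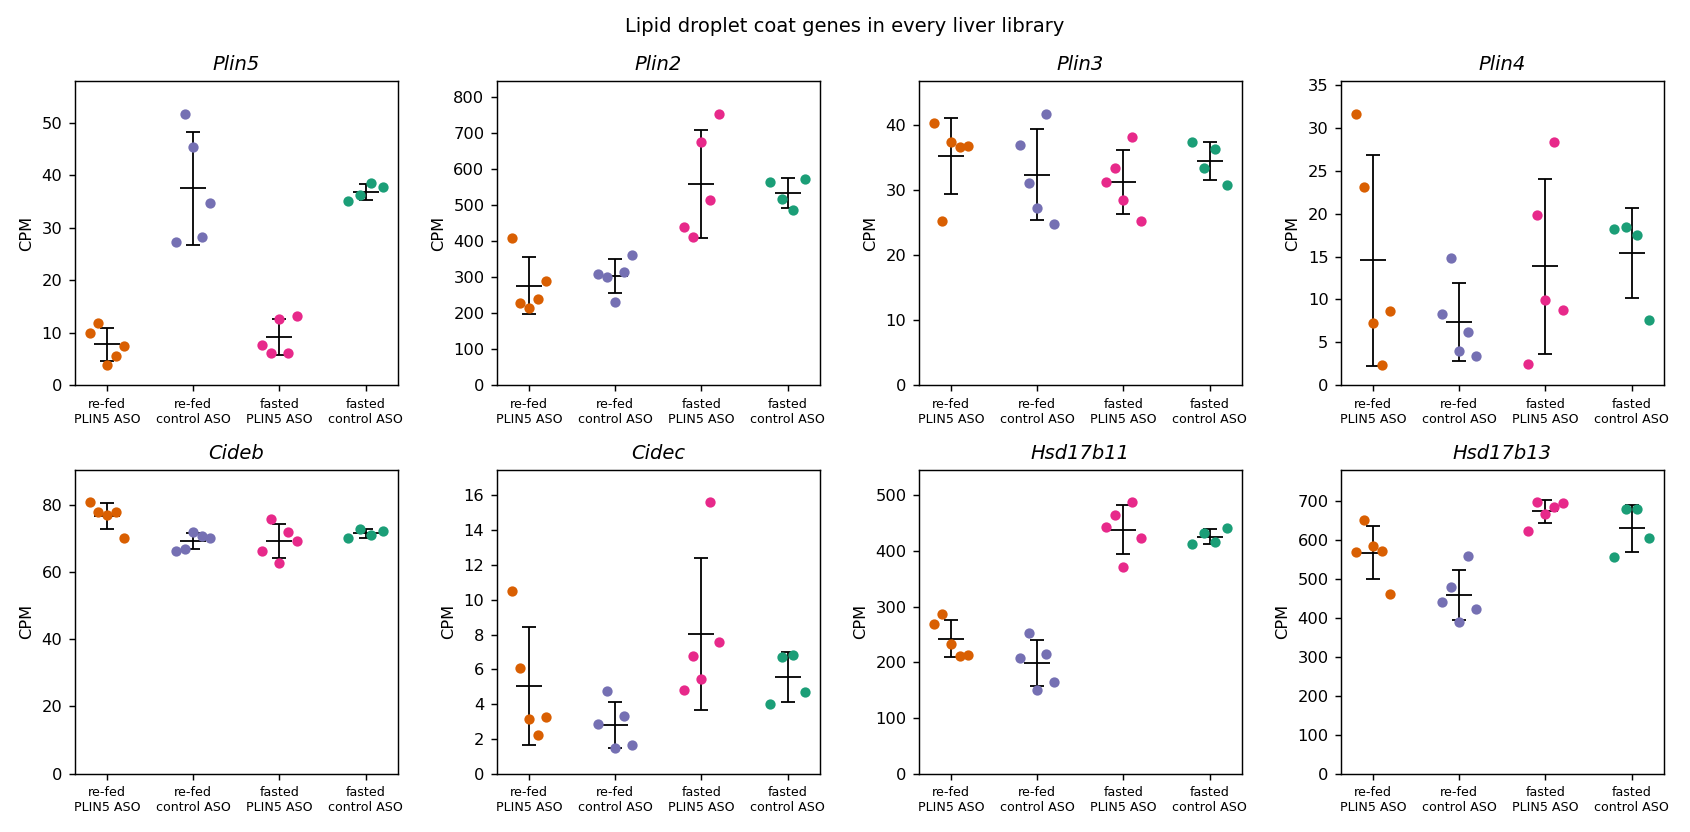
CPM of each member in every library (points) with the group mean and SD (bars), linear axes from 0. Plin5 is low in both PLIN5 ASO groups, Plin2 and Hsd17b11 are low in both re-fed groups, and Plin4 spreads from 2.29 to 31.7 CPM.

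Genes around the droplet coat, taken from lists of known function, set the background for this. Of 20 PPAR alpha targets, 16 fell on re-feeding under PLIN5 ASO and 14 under control ASO, with medians of -0.94 and -0.91. Of 16 lipogenic genes, 11 rose under PLIN5 ASO and 12 under control ASO, with medians of 1.61 and 1.70. Of all genes 8.64% and 13.2% were called there in either direction. Fasn, fatty acid synthase, changed by 3.56 and 3.66. Plin2 and Hsd17b11 changed in the same direction as the PPAR alpha targets. Plin5, also known to be driven by PPAR alpha, did not pass the threshold on re-feeding (-0.24 under PLIN5 ASO and 0.02 under control ASO). Any part of PPAR alpha in these changes was not tested. In the PLIN5 ASO comparisons 0 of the 20 PPAR alpha targets passed the edgeR threshold in either feeding state. Of all genes only 1.17% passed in fasted and 1.38% in re-fed liver. Over both states 1 of 16 lipogenic genes was lower with PLIN5 ASO, where 1.54% of all genes were lower. This was Mlxipl, the gene of ChREBP (-0.47, edgeR adjusted p = 0.0318). Its call was lost without the clock-shifted libraries, and without fasted PLIN5 ASO 1 or fasted control ASO 1 or 5. The highest edgeR adjusted p was 0.0947.

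The lipases and their regulators went in both directions. Of 12 lipolysis genes, 3 rose and 1 fell on re-feeding under PLIN5 ASO, and 2 rose and 2 fell under control ASO. Without the clock-shifted libraries 3 fell under PLIN5 ASO. Of all genes in the fit reported, 8.64% were called under PLIN5 ASO (4.14% lower) and 13.2% under control ASO (6.82% lower). Pnpla3, a lipase-like droplet protein induced by feeding, changed by 4.01 and 4.30 (edgeR adjusted p = 6.56e-04 and 3.12e-04), from low fasted means of 0.258 and 0.529 CPM. Under PLIN5 ASO limma on log2(FPKM + 1) did not call it. Pnpla3 is counted in the lipogenic list as well. Pnpla2, the adipose triglyceride lipase that perilipin 5 is known to hold in check, changed by -0.15 under PLIN5 ASO (edgeR adjusted p = 0.599) and -0.83 under control ASO (edgeR adjusted p = 0.00299), and the difference between those changes was 0.68 (interaction, edgeR adjusted p = 0.236). Lpin1, which makes diacylglycerol, was higher with PLIN5 ASO over both states (1.48, SE 0.36, edgeR adjusted p = 0.0318). That call was lost without re-fed PLIN5 ASO 1, without fasted PLIN5 ASO 4 and without any 1 of the fasted control ASO libraries (adjusted p up to 0.0705).

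Of 20 other droplet proteins 18 could be tested. On re-feeding 1 fell under PLIN5 ASO, where 4.14% of all genes fell, and 1 under control ASO, where 6.82% fell. Without the clock-shifted libraries 2 fell under each ASO. Acsl3, an acyl-CoA synthetase of growing droplets, changed on re-feeding by 0.22 under PLIN5 ASO (edgeR adjusted p = 0.534) and 1.02 under control ASO (edgeR adjusted p = 0.00324). With PLIN5 ASO it was lower in re-fed liver (-0.85, edgeR adjusted p = 0.0349), a call lost in 10 alternative settings (adjusted p up to 0.137). These included leaving out re-fed PLIN5 ASO 1, 2, 3 or 5, re-fed control ASO 1, 3 or 5, or the clock-shifted libraries. Mettl7b, a methyltransferase-like droplet protein, fell on re-feeding by 0.26 and 0.40 on the log2 scale under PLIN5 ASO and control ASO (edgeR adjusted p = 0.0457 and 0.00340). The first of these calls was lost in 17 alternative settings, with an adjusted p of up to 0.122. They included leaving out re-fed PLIN5 ASO 3, 4 or 5, re-fed control ASO 2 or 4, fasted PLIN5 ASO 1, 2, 4 or 5, any 1 fasted control ASO library, or the clock-shifted libraries.

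Among the chromosomal neighbours of the members, the 1 gene that differed with PLIN5 ASO was Lrg1. It is a secreted glycoprotein gene of the acute phase that lies directly beside Plin5. The other neighbours in the annotation were Haus6, Dennd4c, Ticam1, Arrdc5, Hdgfl2, Nop9, Ltb4r2, Rpusd3, Jagn1, Nudt9 and Klhl8. Of all genes tested, 1.17% were called with PLIN5 ASO in fasted liver and 2.99% over both states. The CPM of Lrg1 in fasted livers were 2287, 753, 2215, 1028 and 1395 with PLIN5 ASO, against 712, 594, 571 and 581 with control ASO. The groups did not overlap, and the log2 fold change was 1.32 (SE 0.28, edgeR adjusted p = 0.0258), a call lost in 10 alternative settings (adjusted p up to 0.0838). These included leaving out fasted PLIN5 ASO 3 or 5, any 1 fasted control ASO library, or the clock-shifted libraries. In re-fed livers they were 676, 748, 580, 576 and 744 with PLIN5 ASO, against 305, 359, 640, 449 and 610 with control ASO (0.49, SE 0.25, edgeR adjusted p = 0.298). Over both states the difference was 0.91 (SE 0.19, edgeR adjusted p = 0.0128), and it was called in every alternative run. Of 10 macrophage markers 2 (C1qb and C1qa) were called higher in fasted liver, where 1.17% of all genes were called in either direction. The 10 summed to 150 to 386 CPM in fasted PLIN5 ASO livers and 132 to 158 CPM in fasted control ASO livers. In the fasted PLIN5 ASO libraries, in the order of the Lrg1 values above, these sums were 162, 150, 386, 194 and 270 CPM. Of 8 stellate cell markers 1 (Col3a1) was called higher, and the 8 summed to 167 to 243 CPM with PLIN5 ASO and 132 to 166 CPM with control ASO. Of 6 endothelial, 4 cholangiocyte and 10 hepatocyte markers 0 were called in fasted liver, with median log2 fold changes of -0.16, 0.17 and 0.03. Over both states 1 of 6 endothelial markers was called lower, where 1.54% of all genes were lower. The part of any of these marker lists in the Lrg1 difference was not tested.

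The members differed in how much they varied between livers of the same group. In CPM Plin4 varied most, with a coefficient of variation of 84.4% in re-fed PLIN5 ASO, 62.2% in re-fed control ASO, 73.6% in fasted PLIN5 ASO and 33.9% in fasted control ASO livers. In FPKM Cidec varied more than Plin4 in 3 of the 4 groups, with 98.6% against 84.0% in re-fed PLIN5 ASO, 72.3% against 62.3% in re-fed control ASO and 35.0% against 34.7% in fasted control ASO livers. The single values of Plin4 were 31.7, 23.1, 7.24, 2.29 and 8.62 CPM in re-fed PLIN5 ASO livers and 8.35, 14.8, 4.01, 6.24 and 3.43 CPM in re-fed control ASO livers. They were 2.46, 19.8, 9.97, 28.4 and 8.76 CPM in fasted PLIN5 ASO livers and 18.2, 18.5, 17.5 and 7.61 CPM in fasted control ASO livers. Within a group the highest liver thus held up to 13.8 times the Plin4 of the lowest. Cideb had coefficients of 5.17%, 3.61%, 7.17% and 1.79% in the same order of groups, the lowest of the 8 members except in fasted PLIN5 ASO livers, where Hsd17b13 had 4.49%. The fasted control ASO group, which holds the nearly alike libraries 3 and 4, had the lowest coefficient of variation in CPM for 7 of 8 members.

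The members that varied most also varied together. After the group means were taken out, the log2 CPM of Plin4 and Cidec correlated across the 19 libraries (Pearson's r = 0.84, permutation p = 2.80e-04, adjusted over 28 pairs of members 0.00784, and Spearman's rho = 0.85, permutation p = 1.10e-04, adjusted 0.00308). The r was again 0.84 without the 2 libraries farthest out in Plin4 and 0.85 without the clock-shifted ones. Livers with high Plin4 and Cidec included 1 in each of 3 groups: re-fed PLIN5 ASO 1 (31.7 and 10.5 CPM), re-fed control ASO 2 (14.8 and 4.76 CPM) and fasted PLIN5 ASO 4 (28.4 and 15.6 CPM).

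Cidec and Hsd17b11 correlated likewise (r = 0.80, permutation p = 5.80e-04, adjusted 0.00812, and rho = 0.82, permutation p = 0.00113, adjusted 0.0158), with r = 0.83 without the 2 farthest libraries and 0.77 without the clock-shifted ones. Plin4 and Hsd17b11 passed by rank only (r = 0.63, permutation p = 0.00676, adjusted 0.0631, and rho = 0.73, permutation p = 0.00340, adjusted 0.0317). Plin5 and Plin3 ran opposite ways without passing (r = -0.61, permutation p = 0.0178, adjusted 0.125). Hsd17b11 and Hsd17b13, the neighbouring pair, had r = 0.60 (permutation p = 0.0319, adjusted 0.179). Plin4 and Plin5, also neighbours, had r = 0.25 (permutation p = 0.425, adjusted 0.657).

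**Figure D4:**
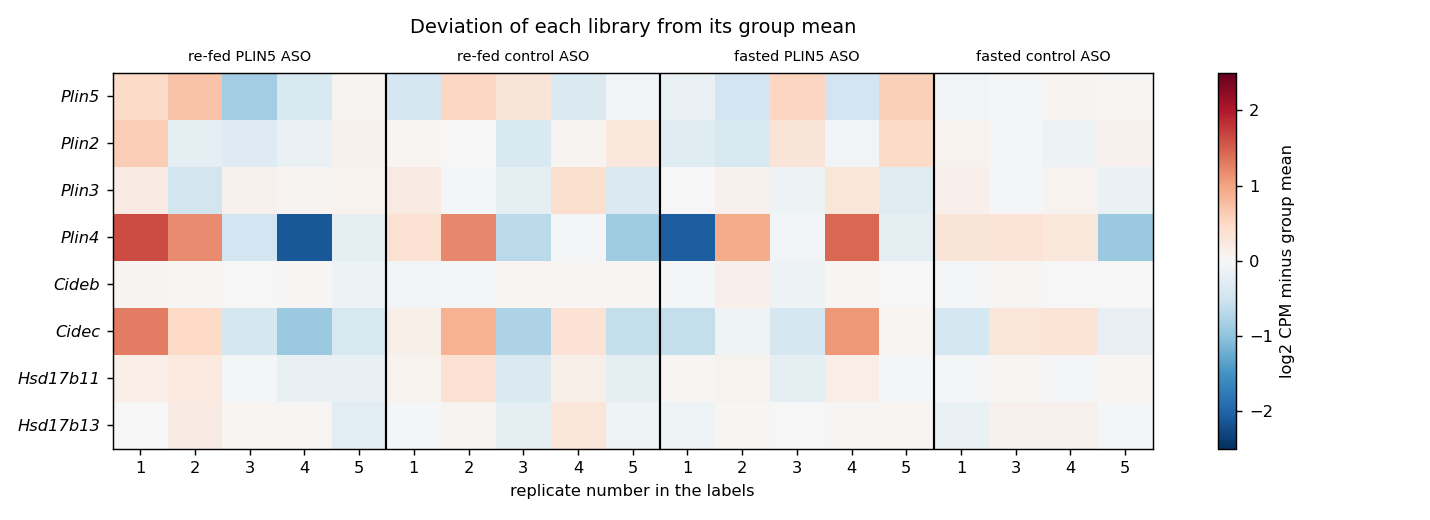
log2 CPM of each member minus its group mean (colour, red above and blue below) in each library, grouped by treatment and feeding, with replicate numbers from the labels. The Plin4 and Cidec rows are the most coloured and share their red libraries, among them re-fed PLIN5 ASO 1 and fasted PLIN5 ASO 4, while the Cideb row is nearly blank.

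**Figure D5:**
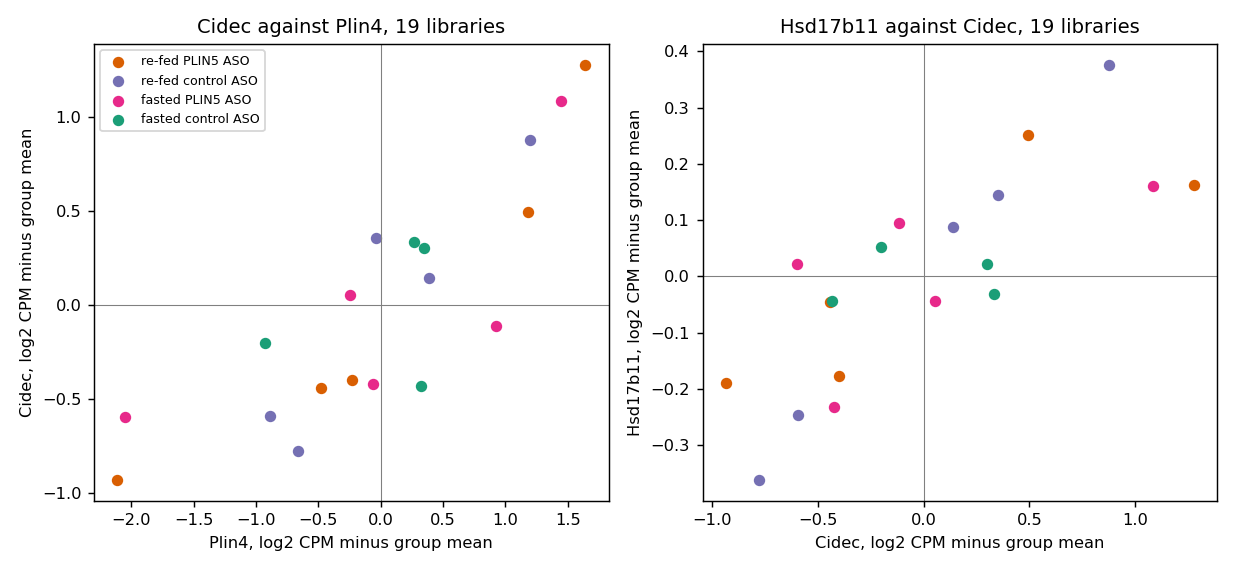
Deviations from the group mean in log2 CPM, each point 1 of 19 libraries coloured by group: Cidec against Plin4 (left, r = 0.84) and Hsd17b11 against Cidec (right, r = 0.80). The points farthest to the upper right on the left include re-fed PLIN5 ASO 1 and fasted PLIN5 ASO 4.

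Adipocyte genes are given beside the Plin4 values, since Plin4 and Cidec are abundant in fat. Cfd, the gene of adipsin, which mature adipocytes secrete, was the gene most like Plin4 over the 19 libraries (r = 0.86 of log2 CPM, of 10049 genes compared). Its level was 13.4 CPM in fasted PLIN5 ASO 4 and 5.43 CPM in re-fed PLIN5 ASO 1, and 0.0666 and 0.0728 CPM in fasted PLIN5 ASO 1 and re-fed PLIN5 ASO 4, where Plin4 was lowest. The gene next most like Plin4 was Gal3st1 (r = 0.83), which is not on the adipocyte list. Adipoq, the adipocyte hormone adiponectin, was at 0 in every re-fed PLIN5 ASO library, where Plin4 ranged from 2.29 to 31.7 CPM, as were Plin1, Lep and Retn. In the re-fed control ASO and fasted PLIN5 ASO groups only Lep was at 0 in every library, and in fasted control ASO only Plin1 and Retn. Adipoq was thus above 0 in some library of each other group. The summed adipocyte markers were 22.6 to 28.7 CPM in re-fed PLIN5 ASO, 20.4 to 36.1 CPM in re-fed control ASO, 29.5 to 43.7 CPM in fasted PLIN5 ASO and 28.2 to 31.5 CPM in fasted control ASO. In re-fed PLIN5 ASO 1 and 4, highest and lowest in Plin4 of their group, the sums were 25.8 and 28.7 CPM. In fasted PLIN5 ASO 4 and 1, likewise highest and lowest, they were 33.6 and 30.8 CPM. Lpl and Adrb3 made up most of these sums. Cfd, also on the adipocyte list, stood at 5.43 and 0.0728 CPM in the first pair and at 13.4 and 0.0666 CPM in the second. Any part of fat tissue in the Plin4 values was not tested.

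For each member the genes whose log2 CPM followed it most closely over the same 19 libraries, group differences included, are given as a description. Hsd17b11 was followed by Decr1 (r = 0.99) and Eci1 (r = 0.98), both enzymes for the breakdown of unsaturated fatty acids. Plin2 was followed by Tmem56 (0.97) and Hsdl2 (0.96), Cidec by Pex11a (0.92), which encodes a peroxisome membrane protein, and Tmem120a (0.91), and Hsd17b13 by Ppap2c and Psma6 (0.91 each). Plin5 was followed by Plk2 (0.86), a kinase gene, and Trp53i11 (0.84). Plk2 was lower with PLIN5 ASO (-1.19 over both states, SE 0.12, edgeR adjusted p = 2.16e-05). Since this likeness includes the ASO difference of Plin5, genes picked by it tend to share that difference, so this p is no separate support. Plin3 was followed by Ank3 (0.85) and Vps29 (0.82), and Cideb by Nop10 and Adgrv1 (0.81 each). Those of Plin4, Cfd and Gal3st1, are given above.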

How the data were processed

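Total RNA of 19 mouse liver samples was sequenced after extraction with the RNeasy kit, per the labels. Tools named in the submitters' processing notes are HISAT2 2.0.2, Cuffdiff 2.2.1, Subread, edgeR and FastQC, with builds mm10 and GRCm38. Whole-number counts for 24421 gene symbols and FPKM for 24347 were deposited by the authors. Among the count symbols 27 look like dates and name no gene. Not given in the sources used here were the strand setting, the annotation and the handling of multi-mapping reads.

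The count test was edgeR 4.0.16 in R 4.3.3 with TMM, filterByExpr by group (minimum count 10), all 19 libraries in 1 fit, group means as coefficients, and the two-sided quasi-likelihood F test with Benjamini-Hochberg adjustment over 13293 genes at 0.05. The biological coefficient of variation was 19.3%. CPM are TMM-scaled. The fit was tested on simulated data. FPKM were used for levels per length and, as an alternative, in limma 3.58.1. Correlations are of deviations from group means, with 100000 permutations within groups.

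The members and gene lists were chosen with earlier results of these data known. Named genes were the members, in each list the up to 4 genes lowest in unadjusted p, the 2 genes most like each member (mean of at least 2 CPM) and chromosomal neighbours. Not every gene this rule selects is reported here. Alternatives were RLE size factors, no filter or 1 CPM in 4 libraries, DESeq2 1.42.0, only the groups compared, the replicate block, each library left out, limma on log2(FPKM + 1) or log2(FPKM + 0.1), the clock-shifted libraries left out, fasted control ASO 3 and 4 as 1 sample, and offsets for transcript length in 25 bins. Alternatives for list counts and for named genes that are no members were chosen after seeing the data.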

Additional observations from a re-analysis of the deposited data

Results flagged for a closer look

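Of 32 groups of values (8 members in 4 groups), 3 held a library far from the others, where chance alone flags about 1 in 20 groups. Plin4 in fasted control ASO 5 stood at 7.61 CPM, against 17.5 to 18.5 CPM in the other libraries of that group. Cidec in fasted PLIN5 ASO 4 stood at 15.6 CPM, against 4.79 to 7.57 CPM in the others, and Plin4 was also highest in that library, at 28.4 CPM. Plin3 in re-fed PLIN5 ASO 2 stood at 25.2 CPM, against 36.6 to 40.3 CPM in the others.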

How the results depend on the processing

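Each of 56 values (8 members in 7 comparisons) was recomputed under up to 31 alternatives, 1712 values in all. Values that passed the threshold neither before nor after count as unchanged, also where their sign changed, as it did in 43. By this count 1697 were unchanged, 14 gained a call, 1 lost it and 0 reversed. The fall of Plin5 passed in every alternative, from -2.47 to -1.90 in fasted liver (highest adjusted p 0.0109) and from -2.48 to -2.12 in re-fed liver (0.0223). The count of members called with PLIN5 ASO in re-fed liver, 1 in the fit reported, ranged from 1 to 2 when single libraries were left out, with Hsd17b13 joining without re-fed control ASO 4. It was also 2 with limma on log2(FPKM + 1), with and without the filter on low values, with Cideb joining. Hsd17b13 on re-feeding under control ASO was the call lost, without the clock-shifted libraries, and under PLIN5 ASO it gained a call with the length trend taken out (adjusted p = 0.0495). Cidec on re-feeding over both ASOs gained a call in 10 of 30 alternatives (adjusted p 0.00826 to 0.125). The causes were not tested.

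Over all genes, the number called with PLIN5 ASO was 156 in fasted liver, 22 to 188 with single libraries left out and 431 with DESeq2. In re-fed liver it was 183, 45 to 341 with single libraries left out, 612 with DESeq2 and 4 when only the 2 groups compared were fitted. Over both states it was 397, and 188 to 396 with single libraries left out. For re-feeding it was 1112 to 2014 under control ASO and 741 to 1232 under PLIN5 ASO with single libraries left out. With fasted control ASO 3 and 4 as 1 sample, 36 genes were called with PLIN5 ASO in fasted liver and 201 over both states. For re-feeding under control ASO 1139 were called in that run, against 1759 in the fit reported. Libraries of the same replicate number had correlations of deviations of -0.21 to 0.17 over 18 pairs, 4 of them above 0.1. Of these, 7 libraries matched their own number best. At 4 to 5 libraries a group some such matches arise without pairing, so whether the numbers pair the libraries cannot be told. With the replicate block, Plin5 stayed at -2.10 in fasted and -2.28 in re-fed liver, Cidec on re-feeding over both ASOs was called (adjusted p = 0.0396), and 253 and 290 genes were called with PLIN5 ASO in fasted and re-fed liver. No second ASO, protein measure or droplet measure was among the data used, and 4 to 5 libraries a group limit what the wide intervals of Plin4 and Cidec can show.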
